A study of Mus musculus with 27 samples.

Results

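Formative pluripotent stem cells (fPSCs) derived from 3 mouse embryonic stem cell (mESC) lines, CMT at passage 11 (P11), BVSC at P14 and ROSAmTmG at P12, were compared gene by gene to describe which transcripts were most constant and which were most variable between lines. Compared were the autosomal genes that reached 10 FPKM in 1 or more of these libraries, FPKM being fragments scaled to transcript length and to the library's mapped fragments. They were ranked by the range over the lines, which is the highest minus the lowest log2(FPKM + 1). Of the 23604 genes used, 5692 reached 10 FPKM in a line, and 5382 of these were autosomal and were ranked. Of the others, 196 were not autosomal and 114 had no position in the annotation. The libraries were 3 of the 19 bulk RNA-seq libraries and of the 27 samples in all.

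The 3 libraries carried the label WT, as did all bulk samples. The fPSCs were grown embedded in Matrigel in N2B27 medium. It held Activin A at 20 ng/ml and bFgf2 at 12 ng/ml, besides the tankyrase inhibitor XAV939, which stabilizes Axin and lowers Wnt signalling. By the study's text, BVSC mESCs carry Blimp1 and Stella reporter transgenes, ROSAmTmG mESCs carry a membrane-targeted fluorescent reporter in the Rosa26 locus, and the CMT P11 cells had been frozen and thawed. Each line was 1 library, so line, passage, freezing, culture and library cannot be told apart, and no test was made between the lines. As rulers, CMT fPSCs at P10, P20 and P30 (the line given by the study's text, the libraries deposited apart from the 3), a further fPSC line (46C at P24), and the duplicate libraries of mESCs, EpiLCs and EpiSCs were measured in the same way.

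Formative pluripotency is the state of the epiblast between the naive state of the blastocyst and the primed state of the gastrulating embryo. Cells in it keep Pou5f1 and Sox2, lose naive factors such as Zfp42 and Esrrb, gain Otx2, Fgf5 and Dnmt3b, and can still become germ cells as well as the germ layers. Activin A and Nodal, its embryonic counterpart, signal through Smad2 and Smad3, hold cells in this state and, at higher doses, direct them towards mesendoderm.

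The label was checked against marker genes. Pou5f1 was at 852 FPKM in CMT, 931 in BVSC and 1025 in ROSAmTmG. Otx2 was at 64.3, 56.7 and 70.6 FPKM in the same order, Fgf5 at 85.1, 97.4 and 93.1, and Dnmt3b at 486, 509 and 595. The 6 formative markers examined were all above 10 FPKM in each line, while the 5 naive markers (Zfp42, Dppa5a, Esrrb, Tfcp2l1 and Klf4) and the 3 neural markers (Sox1, Pax6 and Hes5) were below 1 FPKM in each. Of 6 fibroblast markers, the highest was Thy1 in ROSAmTmG at 7.64 FPKM, and Col1a1 stayed below 0.5 FPKM. Primitive streak and endoderm markers were present at unequal levels, as described further on. In bulk RNA, fewer cells of a type and less RNA per cell cannot be told apart.

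The FPKM summed to between 365203 and 372022 in the 3 libraries, and 10374 to 10553 genes were at 1 FPKM or more. Read totals were not given in the table, so absolute depth is unknown. From the size of the smallest steps between low values, BVSC was sequenced 1.08 times and ROSAmTmG 1.05 times as deeply as CMT.

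The median range over the 3 lines was 0.25, a 1.19-fold difference between the highest and the lowest line. The middle portion of the genes, from the 25th to the 75th percentile, lay between 0.15 and 0.43. The range reached 1 or more, a 2-fold difference on the FPKM + 1 scale, in 251 of 5382 genes (4.66%), called variable here. It was 0.1 or less in 638 genes (11.9%), called constant here. Just inside the variable limit was Notch3, at 16.5, 9.32 and 7.73 FPKM in CMT, BVSC and ROSAmTmG, and just inside the constant limit was Mafg, at 22.71, 23.96 and 22.29 FPKM. Just outside them were Ppp1r18 and Midn.

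Passages of 1 line gave a similar median. Over CMT P10, P20 and P30 the median range was 0.27, with 141 genes (2.62%) at 1 or more and 582 at 0.1 or less. Of the 251 genes that were variable between lines, 67 (26.7%) also had a range of 1 or more over the passages, against 1.25% of the constant genes and 2.62% of all ranked genes. Conversely, 116 of the 251 (46.2%) had a range under 0.5 over the passages. In single pairs, BVSC was higher than CMT by 1 or more in 56 genes (1.04%) and lower in 61 (1.13%). ROSAmTmG was higher than CMT in 67 (1.24%) and lower in 101 (1.88%), and higher than BVSC in 39 (0.725%) and lower in 67 (1.24%). The median absolute difference was 0.14 between CMT and BVSC, 0.15 between BVSC and ROSAmTmG and 0.17 between CMT and ROSAmTmG. Between the duplicate libraries it was larger, 0.23 for mESCs, 0.31 for EpiLCs and 0.21 for EpiSCs, and between CMT P11 and CMT P10 it was 0.42. In the median the lines were thus nearer to each other than duplicates of 1 state were. In the share of genes at a difference of 1 or more they were not throughout, with 106 to 168 genes for the pairs of lines against 75 for EpiSCs, 144 for mESCs and 298 for EpiLCs. The CMT libraries of neighbouring passages, deposited in separate batches, lay farther apart than the lines did.

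**Figure D1:**
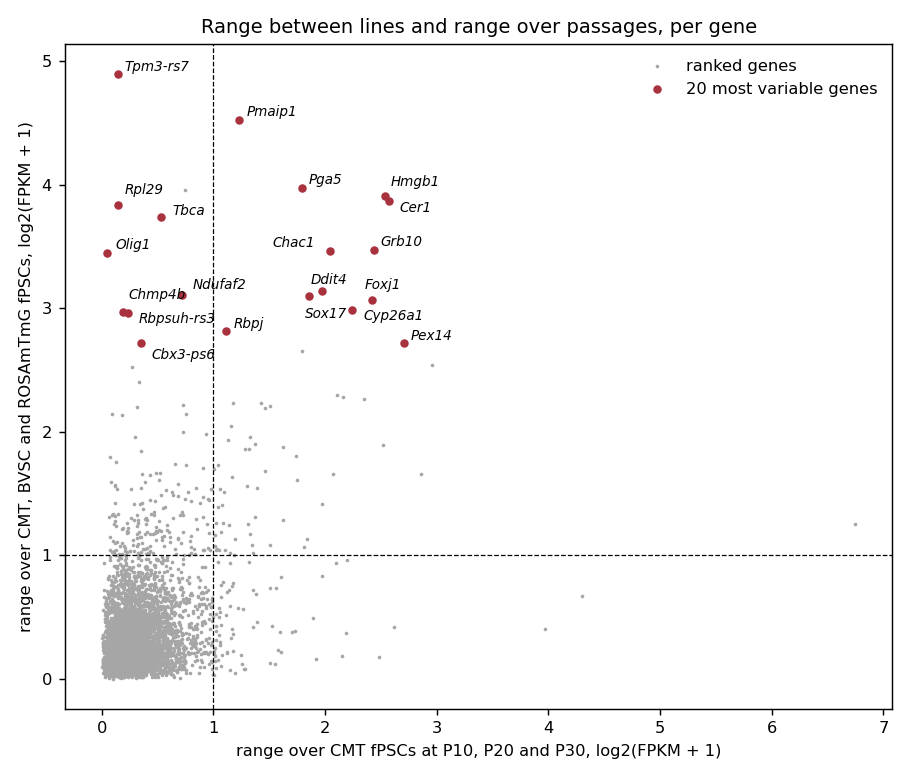
Each point is 1 of the 5382 ranked genes, with the range over CMT P10, P20 and P30 on the x axis and the range over CMT, BVSC and ROSAmTmG on the y axis, both in log2(FPKM + 1), dashed lines at 1, and the 20 most variable genes without small RNAs and histones in red. Most genes lie near the origin, with medians of 0.27 and 0.25, and the 20 genes include some at a passage range above 2, such as Cer1 and Hmgb1, and some near 0.14, such as Tpm3-rs7 and Rpl29.

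Tpm3-rs7 had the largest range of all ranked genes, 4.90. It was at 138 FPKM in CMT, 3.69 in BVSC and 3.67 in ROSAmTmG. CMT stood alone, and the CMT passages were on its side, at 233, 237 and 215 FPKM, while 46C was at 4.07. Tpm3-rs7 lies at chr14:113713830-113715935 on the plus strand of NCBIM37 (mm9) and is nearly identical in its coding sequence to Tpm3, an actin-binding tropomyosin gene at chr3:89876571-89904824 on the plus strand. Of 747 coding bases, 3 differ (99.6% identity), and all 3 lie in the stretch of coding bases 8 to 127. It is given here with the differing bases in capitals, since reads that do not span one of them fit either gene.

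Tpm3: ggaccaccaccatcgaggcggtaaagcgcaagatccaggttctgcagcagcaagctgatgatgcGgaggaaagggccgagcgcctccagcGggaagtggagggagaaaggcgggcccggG

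Tpm3-rs7: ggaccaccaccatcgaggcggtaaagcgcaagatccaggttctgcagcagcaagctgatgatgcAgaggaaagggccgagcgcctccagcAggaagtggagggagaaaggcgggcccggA

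Tpm3 itself was at 73.5 FPKM in CMT, 159 in BVSC and 161 in ROSAmTmG. Here CMT was the lowest line. The FPKM of the pair summed to 212, 163 and 165 in the same order, and the share given to Tpm3-rs7 was 65.3% in CMT, 2.26% in BVSC, 2.23% in ROSAmTmG and 62.3% to 72.3% in the CMT passages. The level of each gene of the pair is therefore uncertain.

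A second pair had the same form. Rbpj, the DNA-binding effector of Notch signalling at chr5:53947018-54048684 (plus strand), was at 1.02 FPKM in CMT, 12.2 in BVSC and 13.2 in ROSAmTmG. Its copy Rbpsuh-rs3 at chr6:46479350-46480921 (minus strand) was at 15.7, 1.32 and 1.14 FPKM, so that CMT was low for Rbpj and high for the copy. Over 1458 aligned coding bases 8 differ (99.5% identity). The stretch of coding bases 7 to 126 holds 4 of them, again in capitals.

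Rbpj: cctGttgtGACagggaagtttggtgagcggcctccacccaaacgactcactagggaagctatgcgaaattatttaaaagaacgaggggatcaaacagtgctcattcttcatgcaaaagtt

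Rbpsuh-rs3: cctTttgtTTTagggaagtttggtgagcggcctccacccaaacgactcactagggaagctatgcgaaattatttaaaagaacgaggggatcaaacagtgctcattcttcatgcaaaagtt

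The Rbpj pair summed to 16.7 FPKM in CMT, 13.5 in BVSC and 14.4 in ROSAmTmG, and the share given to Rbpsuh-rs3 was 93.9%, 9.78% and 7.91%. In the 46C library it was 9.31%, and in the CMT passages 83.1% to 93.9%. The sums of both pairs differed far less between lines than their members did.

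Such copies were counted for the ranked genes annotated as protein coding. A near-identical copy elsewhere in the genome, at 95% identity or more over at least 50% of the transcript, was found for 454 of 5265 genes (8.62%). Of the variable genes, 38 of 243 (15.6%) had one, and of the constant genes 7.81%. Rpl29, a protein of the large ribosomal subunit with 15 such copies, was at 33.0 FPKM in CMT, 484 in BVSC and 458 in ROSAmTmG. The CMT passages (24.1 to 26.7 FPKM) and 46C (34.0 FPKM) were low as well. Cbx3-ps6, a copy of the heterochromatin protein gene Cbx3, was at 6.02, 45.4 and 34.7 FPKM.

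A line was called set apart for a gene when it differed from both others by at least 1 on the log2 scale and by at least 2 times the difference between those 2. This held for 117 of 5382 genes (2.17%), with 24 higher and 34 lower in CMT, 7 higher and 9 lower in BVSC, and 10 higher and 33 lower in ROSAmTmG. Of the genes set apart in CMT and examined for copies, 20 of 55 (36.4%) had a near-identical copy, against 3 of 16 for BVSC and 4 of 41 for ROSAmTmG.

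Among the genes set apart in CMT, Pmaip1 had the largest range after Tpm3-rs7, 4.53. It encodes the pro-apoptotic BH3-only protein Noxa, a p53 target. It was at 0.394 FPKM in CMT, 31.1 in BVSC and 28.3 in ROSAmTmG. The CMT passages, at 1.35, 0.166 and 0 FPKM, and 46C, at 0.00474 FPKM, were low too. Olig1, a transcription factor of the oligodendrocyte lineage, was at 0.0210 FPKM in CMT, 10.1 in BVSC and 4.88 in ROSAmTmG. It was at or near 0 in the CMT passages (at most 0.0312 FPKM) and in 46C (0.0207 FPKM). For both genes CMT P11 was thus on the side of the other CMT libraries and of 46C. Ndufaf2, an assembly factor of respiratory complex I, was at 1.54, 20.9 and 11.4 FPKM. Ndufs5, a subunit of respiratory complex I chosen after its values were seen, was at 4.85 FPKM in CMT, 32.7 in BVSC and 32.3 in ROSAmTmG, with 4.25 to 5.34 in the passages.

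Of the 3 lines, CMT alone was also high for Chmp4b, a component of the ESCRT-III membrane-scission machinery. It was at 62.8 FPKM in CMT, 7.13 in BVSC and 10.8 in ROSAmTmG. The same held for Ddit4, an inhibitor of mTORC1 induced by hypoxia and stress, at 101 FPKM against 22.4 and 10.5. For Aktip, an AKT-interacting protein, the levels were 16.03, 3.15 and 2.69 FPKM. In 46C, Chmp4b was at 66.7 FPKM, Ddit4 at 119 and Aktip at 13.6, each nearer CMT than BVSC or ROSAmTmG. Chmp4b lay between 33.3 and 38.1 FPKM in the CMT passages, whereas Ddit4 was at 93.4, 57.4 and 23.1 FPKM at P10, P20 and P30. For 9 of the 24 genes higher in CMT, all 3 CMT passages lay nearer CMT P11 than the other lines, and for 10 all 3 lay nearer to another line. For the 34 lower genes these numbers were 14 and 9. The 46C library lay nearer CMT P11 for 16 of the 24 and for 16 of the 34.

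BVSC stood apart for 16 genes. Tbca, a tubulin-folding cofactor, was at 101 FPKM in CMT, 6.62 in BVSC and 94.8 in ROSAmTmG. Myl6, a myosin light chain, was at 231, 51.4 and 169 FPKM. Bnip3, a mitophagy receptor induced by hypoxia, was at 66.0, 13.3 and 40.9 FPKM. BVSC was the low line for each, and also for Ssbp1 (48.1, 14.3 and 49.7 FPKM), the mitochondrial single-stranded DNA-binding protein, and Chchd10 (66.5, 23.8 and 72.9 FPKM), a mitochondrial intermembrane space protein. It was the high line for Pex14, a receptor of peroxisomal protein import (2.47, 21.8 and 2.62 FPKM), and for Pmvk, an enzyme of the mevalonate pathway (12.0, 62.9 and 12.2 FPKM). Both also differed over the CMT passages. Pex14 was at 23.7 FPKM at P20 but at 2.85 and 2.80 at P10 and P30, and Pmvk was at 41.25, 46.04 and 9.92 FPKM. Ptk2, H2afj and Celf1 completed the named genes higher in BVSC, with ranges of 1.86, 1.26 and 1.19.

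ROSAmTmG stood apart mainly as the low line. Pga5, a pepsinogen gene, was at 24.8 FPKM in CMT, 11.1 in BVSC and 0.641 in ROSAmTmG. Foxj1, the master factor of motile cilia, was at 26.3, 16.2 and 2.26 FPKM, and Cyp26a1, which degrades retinoic acid, at 20.2, 11.7 and 1.67 FPKM. CMT was the highest and BVSC the middle line for all 3. Cox6c, a subunit of cytochrome c oxidase, was at 124, 116 and 22.6 FPKM, and Cdc26, a subunit of the anaphase-promoting complex, at 79.6, 74.8 and 19.7 FPKM. For these, CMT and BVSC lay close together. Cdc26 was low in 46C as well, at 16.1 FPKM, and all 3 CMT passages (31.1 to 38.6 FPKM) lay nearer ROSAmTmG. Cox6c was at 124 FPKM in 46C. Of the 33 genes lower in ROSAmTmG, 46C lay nearer that line for 4. Churc1 was the gene farthest on the other side, at 3.91, 4.73 and 22.7 FPKM, but it also ranged by 2.35 over the CMT passages. Cdca7l, Dtx1, Slc7a7 and Nr6a1, the other named genes higher in ROSAmTmG, had ranges of 1.87, 1.94, 1.90 and 1.54.

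Some of the most variable genes set no line apart. Hmgb1, an abundant chromatin protein, was at 15.7 FPKM in CMT, 52.9 in BVSC and 249 in ROSAmTmG. It was at 9.71, 31.9 and 61.3 FPKM at CMT P10, P20 and P30, and its duplicates within a state differed by up to 2.60. Grb10, an imprinted adaptor that restrains insulin and growth factor signalling, was at 59.96, 4.49 and 22.54 FPKM in CMT, BVSC and ROSAmTmG, and at 52.2, 25.8 and 144 FPKM over the passages. Both ranged by more than 2 over the passages of CMT. The 20 genes of largest range all differed by at least 6.57-fold on the FPKM + 1 scale between the highest and the lowest line. Of these 20, 12 had a range of 1 or more over the CMT passages, against 2.62% of all ranked genes. For 6 it was under 0.5, against 46.2% of all variable genes. A near-identical copy was found for 7, against 8.62% of the ranked coding genes examined. Small RNAs and histone genes were kept out of these 20 as a class, because many, though not all, lack a poly(A) tail or are shorter than a library fragment. Among them Mir296 (0, 13.97 and 14.51 FPKM), Hist1h4i (2.54, 13.1 and 7.37 FPKM) and H2afj ranged most.

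Endoderm genes had the widest median range of the gene lists examined, 3.10 over 3 genes. Cer1, a secreted antagonist of Nodal, BMP and Wnt made by the anterior endoderm, was at 46.2 FPKM in CMT, 16.2 in BVSC and 2.23 in ROSAmTmG. Sox17, a transcription factor required for definitive endoderm, was at 13.1, 5.18 and 0.642 FPKM, and Foxa2, a pioneer factor of endoderm and axial mesoderm, at 31.9, 30.8 and 9.43 FPKM. All 3 followed the order CMT, BVSC, ROSAmTmG from highest to lowest, an order seen in 20.3% of all ranked genes. They were the only 3 of the 16 endoderm genes to enter the ranking, each with a range above 1, and Sox17 entered through CMT alone, so its range and order are partly set by the filter. Of the 16 genes, 8 were below 1 FPKM in every line. In a given line 10374 to 10553 of all 23604 genes reached 1 FPKM, so such a level was common. The whole list summed to 109 FPKM in CMT, 61.0 in BVSC and 15.4 in ROSAmTmG. Cer1, Foxa2 and Sox17 made up most of each sum, so the sums are not independent of the filter. With these 3 included, 9 of 16 genes followed the order. Afp, a marker of visceral endoderm and liver, was listed at 0 in all 3.

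Primitive streak genes ranged less. Lhx1 and Gsc, homeobox factors of the anterior streak and organizer, were at 13.6, 7.11 and 1.32 FPKM and at 10.5, 4.65 and 1.52 FPKM. Chrd, a BMP antagonist secreted by the organizer, was at 20.5, 10.6 and 5.69 FPKM. For each of them CMT was highest and ROSAmTmG lowest, and Lhx1 and Gsc entered the ranking through CMT alone. T (brachyury), which marks the whole streak, departed from that order, at 20.4 FPKM in CMT, 21.9 in BVSC and 5.37 in ROSAmTmG. Eomes (27.2, 22.3 and 19.3 FPKM), Wnt3 (13.7, 17.7 and 15.2 FPKM) and Fgf8 (56.2, 45.4 and 53.6 FPKM), the most constant of the list, ranged by less than 0.5. Of 8 ranked streak genes, 4 had a range of 1 or more, against 4.66% of all ranked genes. Lowest in ROSAmTmG were 6 of the 8, against 35.3% of all ranked genes. The 15 genes of the list summed to 188 FPKM in CMT, 147 in BVSC and 112 in ROSAmTmG.

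The same genes ranged over the passages of CMT. Cer1 was at 21.1, 10.2 and 2.73 FPKM at P10, P20 and P30, Sox17 at 3.57, 3.49 and 0.265 FPKM, and Foxa2 at 44.3, 20.0 and 5.24 FPKM. Each was lowest at P30. In 46C fPSCs they were higher than in any of the 3 lines, at 203, 50.6 and 81.9 FPKM. T had no such spread over passages (16.5, 14.7 and 19.1 FPKM), so ROSAmTmG lay below each CMT library for T. Shares of cells of each type were not measured in these libraries.

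**Figure D2:**
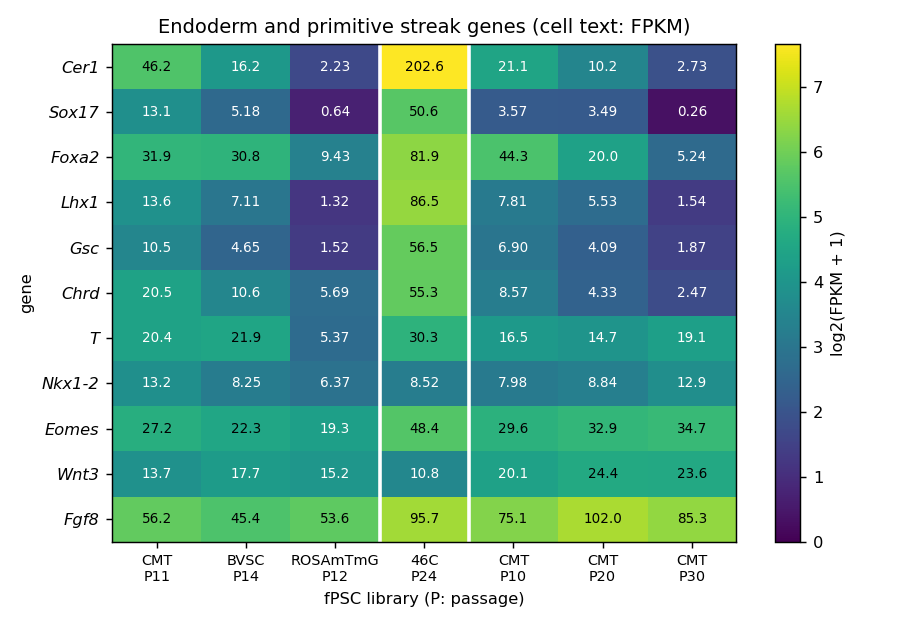
Heat map of 3 endoderm genes (Cer1, Sox17, Foxa2) and 8 primitive streak genes (rows) in 7 fPSC libraries (columns), coloured by log2(FPKM + 1) with the FPKM printed in each cell. White lines set 46C apart from CMT, BVSC and ROSAmTmG on its left and from the CMT passages on its right. Cer1, Sox17, Lhx1 and Gsc descend from CMT through BVSC to ROSAmTmG, from 46.2 to 2.23 FPKM for Cer1, while Eomes stays between 19.3 and 27.2 FPKM in these 3.

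Nodal pathway genes had a median range of 0.26, near that of all ranked genes. Nodal, the ligand, was at 26.77 FPKM in CMT, 26.95 in BVSC and 26.31 in ROSAmTmG, a range of 0.03, although it reached 54.6 FPKM at CMT P30. Foxh1, the DNA-binding partner of Smad2, was at 61.8, 60.7 and 57.7 FPKM. Tdgf1, the Nodal co-receptor, was at 96.6, 149 and 109 FPKM. The ligand and the transcription factor were thus level between lines. The feedback inhibitor Lefty1, by contrast, was at 126, 58.9 and 49.2 FPKM, and Fst, which binds and blocks Activin, at 15.2, 11.8 and 4.47 FPKM. These 2 were the only members of the 10 ranked with a range of 1 or more, reached by 4.66% of all ranked genes, and both followed the CMT, BVSC, ROSAmTmG order.

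General pluripotency genes had a median range of 0.35, against 0.25 for all ranked genes. Of the 10 ranked, none was constant, against 11.9% of all ranked genes, and 1 had a range of 1 or more, against 4.66%. For so few genes these counts are near those shares. The 1 gene was Fgf4, the growth factor by which pluripotent cells signal to each other. It was at 5.44 FPKM in CMT, 8.86 in BVSC and 17.4 in ROSAmTmG. Sox2 was at 24.1, 42.6 and 37.6 FPKM. Pou5f1 ranged by 0.27 and Zfp281 by 0.14. ROSAmTmG was the highest line for 8 of these 10, against 35.0% of all ranked genes. Nanog, the only naive list member ranked, was at 70.8, 53.6 and 60.6 FPKM.

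Of the 17 genes the study used to describe the formative state, 15 were ranked. None of them had a range of 1 or more, which for so few genes is near the 4.66% of all ranked genes. Because the study chose that list on samples of this series, the small ranges are not independent evidence. The widest was Lin28b, a let-7 inhibitor, at 16.4 FPKM in CMT, 13.3 in BVSC and 23.8 in ROSAmTmG, and the narrowest Cldn7, a tight-junction claudin, at 63.2, 63.9 and 62.0 FPKM. Otx2 ranged by 0.31, Fgf5 by 0.19 and Dnmt3b by 0.29, and the median range of the list, 0.30, lay near the 0.25 of all genes. Of the 15 genes, 8 were highest in ROSAmTmG, against 35.0% of all ranked genes. Germline genes silenced by promoter methylation, 15 of 15, were below 1 FPKM in each line, as were 10 of 11 genes of the two-cell-like state. Such a level was common, since only 10374 to 10553 of all 23604 genes reached 1 FPKM in a given line.

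The Lin28, Igf2bp, Hmga and Myc genes, which promote growth and hold back maturation, were highest in ROSAmTmG in 9 of 9 cases, against 35.0% of all ranked genes. Hmga1, an architectural chromatin protein, was at 403 FPKM in CMT, 1001 in BVSC and 1046 in ROSAmTmG. Igf2bp2, an RNA-binding protein encoded on chromosome 16, was at 12.7, 10.1 and 23.6 FPKM, and Mycn at 53.9, 59.5 and 85.8 FPKM. Igf2bp1 lay at 44.6, 45.6 and 45.7 FPKM. The list held both wide and very narrow ranges, with a median of 0.36.

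Hypoxia response genes had a median range of 1.01, with 5 of 9 ranked at 1 or more, against 4.66% of all ranked genes. Of the 9, 8 were highest in CMT, against 35.5% of all ranked genes. Vegfa, the vascular growth factor, was at 17.2 FPKM in CMT, 7.30 in BVSC and 5.38 in ROSAmTmG. Pdk1, a kinase that inhibits pyruvate dehydrogenase, was at 13.9, 6.41 and 10.7 FPKM. Egln1, an oxygen sensor that marks Hif1a for degradation, was at 12.0, 5.86 and 5.67 FPKM. CMT was the high line for all 3. Over the CMT passages Vegfa was at 12.4, 12.2 and 5.29 FPKM, and Ddit4 and Bnip3 were lowest at P30 as well. In 46C Vegfa was at 25.1 FPKM, Ddit4 at 119 and Bnip3 at 110, each above CMT, BVSC and ROSAmTmG.

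Glycolysis genes shared this side, with 13 of 15 highest in CMT, against 35.5% of all ranked genes, and 4 at a range of 1 or more, against 4.66%. Slc2a3 and Slc2a1, the glucose transporters, were at 80.6, 40.2 and 24.7 FPKM and at 128, 51.7 and 72.3 FPKM. Eno1 (enolase) was at 1203, 526 and 578 FPKM and Ldha (lactate dehydrogenase) at 1960, 928 and 1427 FPKM. BVSC or ROSAmTmG held the lowest level by turns. Gapdh (1650, 1612 and 1451 FPKM) and Pfkm (23.5, 23.5 and 24.4 FPKM), of the same pathway, ranged by 0.18 and 0.05.

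Genes of the Atf4 pathway, which answers amino acid shortage and unfolded proteins, followed the CMT, BVSC, ROSAmTmG order in 11 of 15 cases, against 20.3% of all ranked genes. Chac1, a glutathione-degrading enzyme, was at 47.3 FPKM in CMT, 20.7 in BVSC and 3.38 in ROSAmTmG. Trib3, a pseudokinase, was at 37.6, 29.7 and 10.6 FPKM, and Stc2, a secreted glycoprotein, at 18.6, 9.13 and 5.77 FPKM. The line order was that of the endoderm genes. Atf4 itself was at 255, 216 and 162 FPKM, while the serine synthesis enzyme Phgdh, the most constant of the list, was at 158, 174 and 177 FPKM. Chac1 and Trib3 ranged by 2.05 and 1.04 over the CMT passages.

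The p53 target genes had another order. Of 15 ranked, 12 were lowest in ROSAmTmG, against 35.3% of all ranked genes, and 6 had a range of 1 or more, against 4.66%. Cdkn1a, the p21 cell cycle inhibitor, was at 26.5 FPKM in CMT, 32.3 in BVSC and 9.92 in ROSAmTmG. Trp53inp1 was at 14.4, 21.2 and 7.11 FPKM, Phlda3, an inhibitor of Akt, at 40.0, 64.0 and 27.3 FPKM, and Plk2, a polo-like kinase, at 9.57, 19.8 and 6.42 FPKM. BVSC was highest and ROSAmTmG lowest for these 4. Mdm2, the ubiquitin ligase of p53, was at 23.5, 29.6 and 21.2 FPKM. Pmaip1, low in CMT, was an exception to the order. Trp53 itself was at 174, 93.9 and 95.7 FPKM, highest in CMT.

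Imprinted genes, expressed from 1 parental allele, had a median range of 0.95 with 8 of 17 at 1 or more, against 4.66% of all ranked genes. No order of the lines was shared by most of them. Besides Grb10, Nnat, a membrane protein of developing neurons, was at 6.87 FPKM in CMT, 18.3 in BVSC and 2.32 in ROSAmTmG. Meg3, a long non-coding RNA, was at 42.4, 22.3 and 56.5 FPKM, and Cdkn1c, a cell cycle inhibitor, at 24.7, 12.3 and 32.5 FPKM. Each line was lowest for some member. Phlda2 was lowest in CMT, at 10.97, 23.13 and 21.65 FPKM, while Mcts2 was the most constant, at 25.83, 28.22 and 27.99 FPKM. Over the CMT passages 5 of the 17 had a range of 1 or more, against 2.62% of all ranked genes. Meg3 was at 6.44 to 10.5 FPKM in those passages and at 2.35 FPKM in 46C, below each of the 3 lines.

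Core machinery was the most level. Of 34 ranked proteasome genes 11 had a range of 0.1 or less, against 11.9% of all ranked genes. None reached 1, against 4.66% of all. The median range was 0.15 there, 0.19 for 70 oxidative phosphorylation genes, 0.20 for 73 ribosomal protein genes and 0.22 for 62 spliceosome genes. The exceptions in these lists were single genes. Among the ribosomal proteins Rpl29, Rpl34 and Rpl30 had ranges of 3.83, 1.80 and 1.53, and each was low in CMT. Rpl34 was at 109, 380 and 374 FPKM, while Rpl34-ps1, named as its pseudogene, was at 972, 444 and 425 FPKM, high in CMT. Whether reads were divided differently between these 2 was not tested, so the level of Rpl34 is uncertain. Of the 70 oxidative phosphorylation genes 3 had a range of 1 or more, Ndufs5, Cox6c and Uqcrh, near the 4.66% of all ranked genes.

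**Figure D3:**
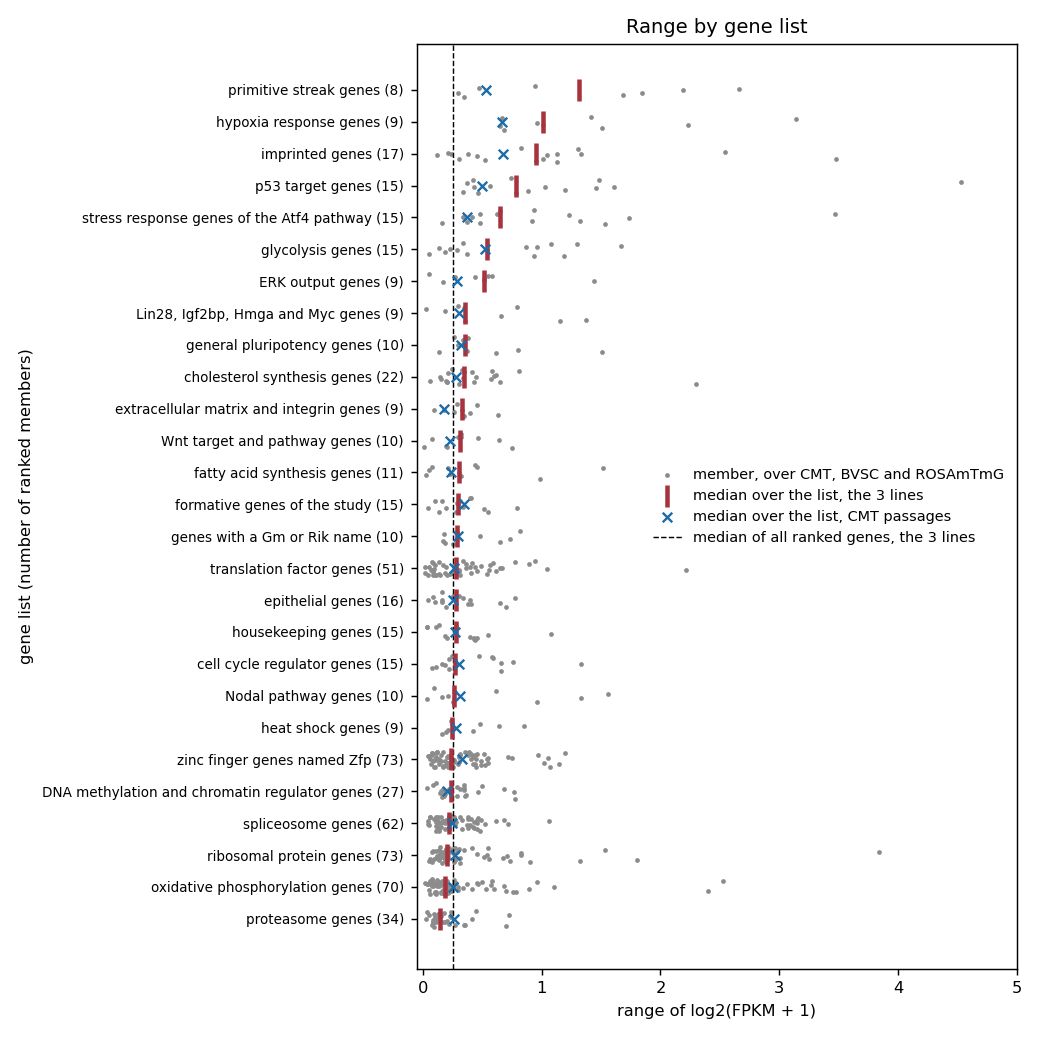
Range of log2(FPKM + 1) over CMT, BVSC and ROSAmTmG (x axis) for the members (grey points) of each gene list with at least 8 ranked members (small RNAs and histones left out), with the list median (red bar), the list median over CMT P10, P20 and P30 (blue cross) and the median of all ranked genes, 0.25 (dashed line). Primitive streak genes have the highest median, 1.32, and proteasome genes the lowest, 0.15.

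Chromosome 16 stood apart from the other autosomes in ROSAmTmG. The median of log2(FPKM + 1) in ROSAmTmG minus CMT over its 200 ranked genes was 0.49, a 1.40-fold difference, and 0.52 (1.43-fold) in ROSAmTmG minus BVSC, while BVSC minus CMT was -0.02. Over the other 18 autosomes the medians lay between -0.08 and 0.07 for ROSAmTmG minus CMT and between -0.04 and 0.02 for ROSAmTmG minus BVSC. Of the 200 genes, 184 (92%) were highest in ROSAmTmG, against 32.8% of the 5182 genes elsewhere, and 149 (74.5%) were at least 1.2-fold above both other lines, against 4.69% elsewhere. With the chromosome cut into 5 blocks of equal gene number, the median of each block lay between 0.45 and 0.56. The higher levels were thus spread along the whole chromosome. DNA copy number was not measured here.

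**Figure D4:**
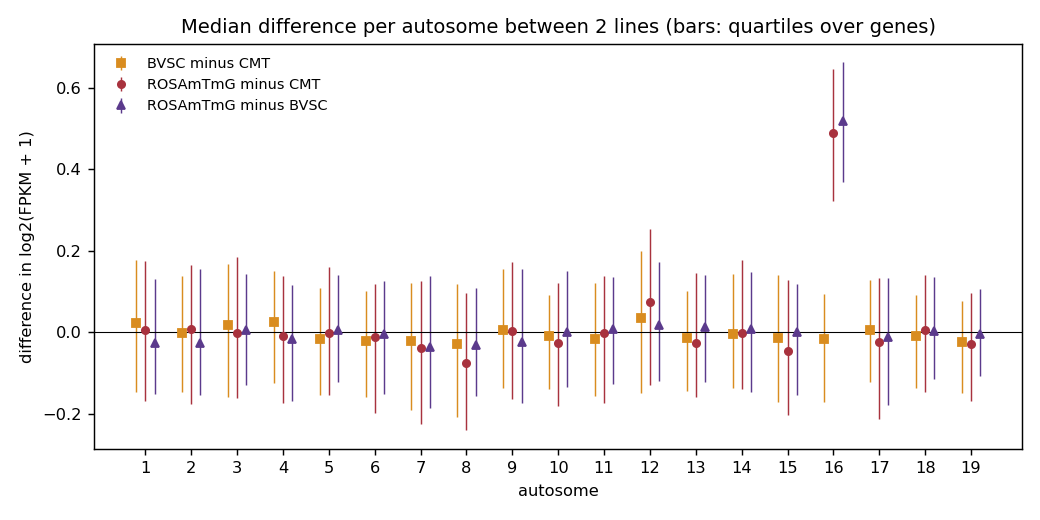
Median difference in log2(FPKM + 1) between each pair of lines (y axis) over the ranked genes of each autosome (x axis), with bars from the lower to the upper quartile over genes. Chromosome 16 is at 0.49 for ROSAmTmG minus CMT and at 0.52 for ROSAmTmG minus BVSC, and the other autosomes lie between -0.08 and 0.07 for these pairs.

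Single genes of chromosome 16 give the levels behind these medians. Psmd2, a subunit of the regulatory particle of the proteasome, was at 146 FPKM in CMT, 143 in BVSC and 237 in ROSAmTmG. Rpl24, a ribosomal protein, was at 913, 843 and 1349 FPKM, and Eif4g1, the scaffold of the translation initiation complex, at 171, 180 and 253 FPKM. Tfrc, the transferrin receptor, was at 28.61, 24.04 and 51.96 FPKM. Psmd2 was the most variable proteasome gene and Tfrc the most variable of 15 housekeeping genes. Etv5, an ERK-induced factor on the chromosome, was at 58.9, 65.5 and 88.9 FPKM. Chrd and Olig1 also lie on chromosome 16, and neither was highest in ROSAmTmG. Only 1 of the 200 genes (0.5%) was constant between lines, against 12.3% elsewhere, and 15 (7.5%) were variable, against 4.55%. The median range was 0.61 on chromosome 16 over the lines and 0.25 over the CMT passages.

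**Figure D5:**
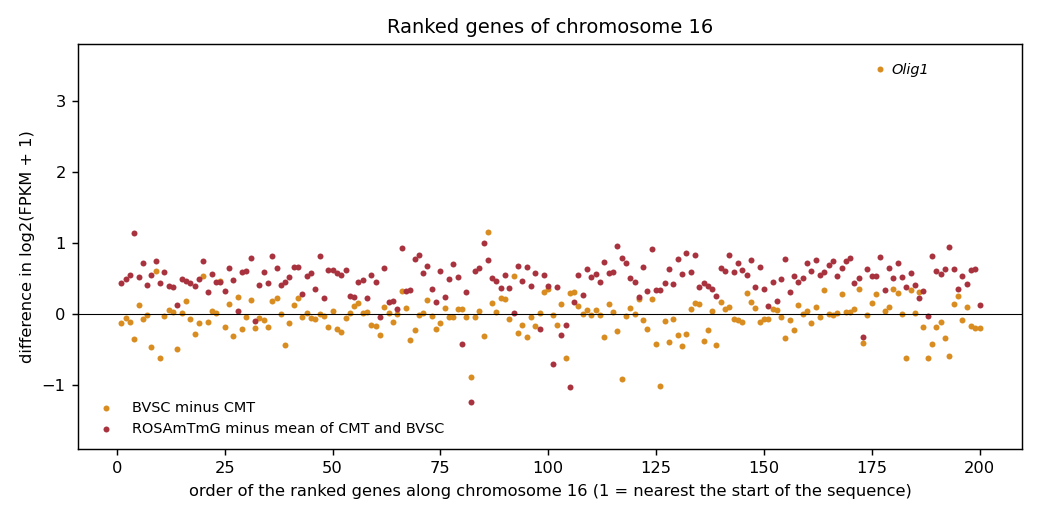
Differences in log2(FPKM + 1) (y axis) of ROSAmTmG minus the mean of CMT and BVSC (red) and of BVSC minus CMT (orange) for the 200 ranked genes of chromosome 16 in their order along it (x axis). The red points lie mostly above 0 from end to end, and the orange points scatter around 0, with a median of -0.02 and Olig1 as the highest.

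The 20 genes of smallest range differed by at most 0.017 between lines. Nsa2, a factor of ribosome assembly, was at 64.4 FPKM in CMT, 64.4 in BVSC and 64.5 in ROSAmTmG. Map3k7, the kinase Tak1 that acts in TGF-beta and inflammatory signalling, was at 15.9, 15.8 and 15.9 FPKM. Stk40, a pseudokinase, was at 29.8, 29.8 and 29.9 FPKM, and Tcf7, an effector of Wnt signalling, at 33.2, 32.9 and 33.2 FPKM. The others were Tmem126a, Polr1d, Gcom1, Tollip, Wdr4, Mkrn2, Mrfap1, Atp5sl, Dusp1, Polr2d, Pi4k2b, Mcl1, Bap1, Mrpl43, Cox7a2 and Mrpl36, among them RNA polymerase subunits, mitochondrial ribosome and respiratory chain components, and the survival factor Mcl1. This closeness did not hold for every comparison. Over the CMT passages the same 20 genes ranged by 0.03 to 0.70, and their largest difference between duplicate libraries was 0.18 to 2.07, the last for Polr1d. Across the means of mESCs, EpiLCs and EpiSCs, 4 of the 20 had a range of 1 or more. Of all 638 constant genes, 238 (37.3%) did, against 43.3% of all ranked genes and 66.9% of the variable genes.

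Level differed between constant and variable genes. The median mean level was 28.5 FPKM for the constant, 18.6 for the variable and 23.2 for all ranked genes. Among the variable genes 46.2% were at 10 FPKM or more in all 3 lines, against 85.9% of all. Genes that entered through their highest line only are thus more frequent among the variable genes, and the filter took part in that.

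Promoter marks were measured in fPSCs at P10, whose line the labels do not name. The values were the ChIP-seq signal of H3K4me3, a mark of active promoters, and of H3K27me3, the Polycomb mark of repressed developmental genes, and the fraction of methylated CpG sites, each within 1 kb of the transcription start. None of them entered the ranking. H3K27me3 at the promoter was above the 90th percentile of the 5265 genes for 67 of 243 variable genes (27.6%) and 39 of 627 constant genes (6.22%). H3K4me3 was among the lowest 10% for 19.3% and 8.13% of them. Methylation was 0.5 or more at 16.9% and 4.78% of these promoters and at 5.21% of all. High H3K27me3, low H3K4me3 and high methylation were thus each more frequent at promoters of variable than of constant genes, from 1 file per mark, so without an error. The variable genes were also lower in level, and the part of level in these shares was not tested.

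The CMT, BVSC, ROSAmTmG order held for 27 of the 67 variable genes with high H3K27me3 and for 50 of the other 176. It held for 31.5% of all variable genes and 20.3% of all ranked genes. Lowest in ROSAmTmG were 39 of the 67 and 68 of the 176, against 35.3% of all ranked genes. The median range over the CMT passages was 0.73 for the 67 genes, against 0.49 for the other 176. Promoters of 5 variable and 3 constant genes are shown, the 200 bases before the annotated gene start, with CpG dinucleotides in capitals because they are the sites that DNA methylation acts on. Positions are of NCBIM37, on the minus strand for Sox17 (chr1:4486495-4486694), Lhx1 (chr11:84338924-84339123), Cer1 (chr4:82531053-82531252), Pga5 (chr19:10752562-10752761) and Nsa2 (chr13:97907882-97908081). They are on the plus strand for Olig1 (chr16:91269814-91270013), Stk40 (chr4:125781001-125781200) and Map3k7 (chr4:32050872-32051071).

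Sox17: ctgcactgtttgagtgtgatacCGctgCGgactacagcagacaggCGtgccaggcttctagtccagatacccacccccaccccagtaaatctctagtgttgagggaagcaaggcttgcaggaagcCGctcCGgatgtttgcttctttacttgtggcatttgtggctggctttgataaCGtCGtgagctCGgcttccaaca

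Lhx1: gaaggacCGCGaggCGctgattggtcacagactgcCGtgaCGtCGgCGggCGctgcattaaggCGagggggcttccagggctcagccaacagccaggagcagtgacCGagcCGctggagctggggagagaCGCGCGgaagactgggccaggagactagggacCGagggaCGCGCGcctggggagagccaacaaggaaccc

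Olig1: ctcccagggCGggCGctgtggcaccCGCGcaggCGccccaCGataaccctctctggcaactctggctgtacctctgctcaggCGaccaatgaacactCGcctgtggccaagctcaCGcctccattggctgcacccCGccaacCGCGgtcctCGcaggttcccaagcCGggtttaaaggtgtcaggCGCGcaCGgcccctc

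Cer1: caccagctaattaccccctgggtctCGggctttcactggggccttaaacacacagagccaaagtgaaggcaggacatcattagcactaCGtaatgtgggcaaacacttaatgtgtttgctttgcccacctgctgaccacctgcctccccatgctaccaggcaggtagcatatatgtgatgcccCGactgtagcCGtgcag

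Pga5: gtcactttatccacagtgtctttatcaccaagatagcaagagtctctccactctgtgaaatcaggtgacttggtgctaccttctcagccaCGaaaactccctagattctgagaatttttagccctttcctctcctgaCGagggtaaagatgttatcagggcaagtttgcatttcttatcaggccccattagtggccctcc

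Nsa2: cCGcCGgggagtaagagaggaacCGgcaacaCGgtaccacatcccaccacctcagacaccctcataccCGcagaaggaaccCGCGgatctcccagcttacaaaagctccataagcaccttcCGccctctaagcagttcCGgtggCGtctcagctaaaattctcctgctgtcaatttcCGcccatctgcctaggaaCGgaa

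Stk40: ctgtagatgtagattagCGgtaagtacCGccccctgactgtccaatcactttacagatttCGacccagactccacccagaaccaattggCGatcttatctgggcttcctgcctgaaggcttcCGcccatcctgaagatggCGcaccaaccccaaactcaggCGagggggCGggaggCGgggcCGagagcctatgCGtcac

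Map3k7: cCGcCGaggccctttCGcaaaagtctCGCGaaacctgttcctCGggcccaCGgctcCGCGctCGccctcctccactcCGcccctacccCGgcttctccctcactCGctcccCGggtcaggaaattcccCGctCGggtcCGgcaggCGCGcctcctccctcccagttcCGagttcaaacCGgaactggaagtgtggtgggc

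The variable genes shown differed among themselves. Lhx1 and Olig1 held 18 and 17 CpG in these windows, Sox17 held 8, and their promoters had H3K27me3 of 2.51, 2.38 and 4.16 RPKM (reads scaled to bin length and sequencing depth) with methylation of 0.00625, 0.0807 and 0.0113. Cer1 and Pga5 held 4 and 2 CpG, with methylation of 0.855 and 0.845 and H3K27me3 of 0.354 and 1.38 RPKM, the latter also above the 90th percentile. The constant genes Nsa2, Stk40 and Map3k7 held 12, 11 and 21 CpG, with H3K27me3 of 0.0960, 0.128 and 0.0645 RPKM and H3K4me3 of 10.8, 9.76 and 8.52 RPKM. The median over all 5265 promoters was 14 CpG, and 99.2% held at least 1. Pmaip1, at or near 0 in the CMT libraries and in 46C but not in BVSC or ROSAmTmG, had a promoter methylation of 0.979 and H3K27me3 of 2.00 RPKM in the P10 fPSCs.

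Single cells of 4 fPSC clones, whose line the labels do not name either, gave a further readout that the ranking did not use. Of 182 cells, 181 were used, 44 to 46 per clone, at a median of 19078 to 33883 counts per cell and clone. In clone 3, 1 cell name stood over 2 columns with different counts, which were kept as 2 cells. The tables listed 234 of the 251 variable, 626 of the 638 constant and 5260 of all ranked genes. A variable gene so listed was detected in a median of 39.0% of cells, a constant gene in 47.0% and any ranked gene in 43.6%. Genes found in fewer than 10% of cells made up 9.83%, 1.76% and 3.498% of these groups. Between the clones the median range of log2(CPM + 1), CPM being counts scaled to the total of the clone, was 1.27 for variable genes, 0.95 for constant genes and 1.00 for all. Foxj1 had a count in 1.10% of cells, T in 8.84%, Foxa2 in 21.5% and Eomes in 40.9%. Hmgb1 was detected in 92.3% of cells and Tpm3-rs7 in 74.0%, while Rpl29 was detected in 8.84%. Cer1, Sox17, Gsc, Olig1 and Pmaip1 were not among the genes listed and were not analysed here in single cells.

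The reporter loci were examined last. Gt(ROSA)26Sor, the transcript of the locus that holds the ROSAmTmG reporter, was at 11.1 FPKM in CMT, 10.6 in BVSC and 5.12 in ROSAmTmG. Of the 3 lines it was lowest in the one with the insertion. The CMT passages, however, were at 3.65, 4.53 and 5.77 FPKM, and 46C was at 11.2 FPKM. Prdm1, the gene of Blimp1, was at 0.808, 2.78 and 0.0439 FPKM, of the 3 highest in BVSC, the line with the Blimp1 reporter. In 46C it was higher than in BVSC, at 3.97 FPKM, and in the CMT passages at most 0.661 FPKM. Dppa3, the gene of Stella, was near 0 in all 3. Transgene reads were not separated from those of the endogenous genes in the table, and with 1 library per line a difference due to the reporters cannot be told apart from other differences between the lines.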

How the data were processed

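Per the methods and the labels, total RNA was digested with DNase, built into libraries with a NEBNext Ultra kit and sequenced, reads were trimmed with cutadapt 1.11, mapped with TopHat2 2.1.1 to mouse Ensembl transcripts of mm9, and expressed as FPKM by Cufflinks 2.1.1. The deposited FPKM table had 23608 entries, of which 4 shared a name and were left out, and it gave neither counts nor read totals. The ChIP-seq signal was deposited as RPKM in 100-bp bins after Bowtie2 2.2.2 mapping to mm9. The methods state that ChIP-seq replicates were merged. DNA methylation was deposited as the fraction methylated at single positions (BS-Seeker2), with no coverage, so depth is unknown there. The authors' single-cell files held raw counts per gene and cell, of which cells with at least 500 genes were used, and no doublet caller was run. Cells were named by clone and number, so shared barcodes were not counted.

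Ranges, medians and counts were computed from log2(FPKM + 1) in Python 3.11.15 with pandas 2.3.3 and numpy 2.4.6, and figures drawn with matplotlib 3.10.9. Gene positions came from the NCBIM37 annotation, by name for 5192 genes and through RefSeq synonyms for 357, while 29 had several positions. Coding genes with near-identical copies were found with minimap2 2.31-r1302, and sequences read with pysam 0.24.0 and samtools 1.23.1. The scripts were tested on simulated data. With 1 library per line no test and no error of a line could be given, and no p-value was computed.

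The genes and the 43 gene lists were chosen with earlier results of these data known. Named were the 20 genes of largest and of smallest range without small RNAs and histones, the 5 genes set farthest apart per line and direction, the study's formative, naive and primed genes, the widest and narrowest gene of each list, and the reporter loci. Some of these are not reported here. Further list members were picked as examples after their values were seen. Alternatives were other filters, pseudocounts, scalings and sets of lines. Leaving out chromosome 16, lowering it in ROSAmTmG by 0.52 (log2), or leaving out small RNAs, histone genes and genes with copies was chosen after seeing the data.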

Additional observations from a re-analysis of the deposited data

How the results depend on the processing

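Of the summary values recomputed under the alternatives, 65 stayed within a set limit and 32 moved by more. The limit was 1.5 times for a count and the spread between 3 duplicate pairs (0.055) for a median range. For the correlation it was the standard deviation over the pairs of lines (0.0075). For chromosome 16 it was the standard deviation of the other autosomes' medians, 0.031 for ROSAmTmG minus CMT and 0.016 for ROSAmTmG minus BVSC. The ranking held 10228 genes at 1 FPKM and 20492 without a filter. The median range of 0.25 was 0.14 without a filter, 0.36 with 46C added, and 0.14 to 0.17 without 1 line. The 251 variable genes became 482 at 1 FPKM, 482 without a filter, 116 at 10 FPKM in all 3 lines, 420 with 46C, and 106 to 168 without 1 line (106 without CMT, 117 without ROSAmTmG). The 638 constant genes became 985, 8812, 179 with 46C, and 1606 to 2036 without 1 line. With a 1.5-fold gap, 383 genes set a line apart, 63 higher and 84 lower in CMT, 21 and 45 in BVSC, 68 and 102 in ROSAmTmG. With small RNAs, histone genes and genes that had copies left out, 15 were higher and 22 lower in CMT. On chromosome 16 the medians of ROSAmTmG minus CMT and minus BVSC were 0.42 and 0.46 at 1 FPKM. The mean correlation of the lines, 0.962, was 0.945 by Spearman's rho and 0.992 over all genes. Fewer lines, more lines or other genes make these shifts by construction. Of 41 gene lists, 5 moved with a pseudocount of 0.1, endoderm genes to 4.15 and streak genes to 1.44, none with another scaling, and 1 without chromosome 16, the streak genes, at 0.95. No paired analysis was possible because each line had 1 library. Differences below the spread of duplicates cannot be told from noise between libraries, and low FPKM carry unknown counting error.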

Other observations

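Other gene groups held further single genes of wide range. Of 22 ranked cholesterol synthesis genes 1, Pmvk, reached a range of 1, near the 4.66% of all ranked genes. Among ERK output genes Dusp4, a phosphatase that switches ERK off, was at 21.98, 12.45 and 7.45 FPKM, and Spred1, an inhibitor of Ras, at 17.2, 17.1 and 17.9 FPKM. Immediate early genes split likewise. Cyr61, a matrix protein that also counts as a Yap target, was at 8.58, 10.1 and 2.06 FPKM, and Btg2, an antiproliferative gene, at 11.01, 12.24 and 4.68 FPKM, but Dusp1 was at 11.9, 12.0 and 11.9 FPKM. ROSAmTmG was the low line for Dusp4, Cyr61 and Btg2.

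Cell cycle and chromatin genes had median ranges of 0.27 and 0.24, near the 0.25 of all ranked genes, of which 4.66% reached a range of 1. Of 15 ranked cell cycle regulators, Cdkn1c alone reached a range of 1, and Cdk4, a kinase of G1, was at 299 FPKM in CMT, 303 in BVSC and 315 in ROSAmTmG. Of 27 regulators of DNA methylation and chromatin none reached 1. The widest was Hdac1, a histone deacetylase, at 75.4, 94.0 and 130 FPKM, and the narrowest Pcgf6, a Polycomb subunit, at 30.6, 31.4 and 31.4 FPKM. Bst2, an interferon-induced restriction factor, was the only interferon response gene ranked of 17, with a range of 1.21.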
